A study of Drosophila melanogaster with 4 samples.

Results

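The insulin receptor signalling chain was followed here through 9 genes, in order from ligand to effector: Ilp2, Ilp4, InR, chico, Akt, foxo, Tor, S6k and Girdin. A gene was included when a spot other than a control was assigned to that gene alone and had values on at least 3 arrays. All 9 genes met this rule, out of 8465 named genes that did, and all 9 had a value on every array. InR, Ilp2, chico, Akt, S6k and Girdin were each read by 1 spot, foxo and Tor by spots of 2 different clones, and Ilp4 by 2 printings of 1 clone. Tor carries the current symbol mTor in the RefSeq table (Release 6). The Ilp4 clone, RE27042, was named through that table, which holds the clone as a synonym of the gene, and the clones of the other members through the annotation of the array platform.

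Embryos of Drosophila melanogaster, aged 0 to 1 h, were wounded with a laser or handled alike without wounding, and were recovered immediately (0 min). Both the wounded and the unwounded embryos carried the actin reporter sGMCA, so each comparison was made within that background. Labelled cDNA of a wounded and an unwounded pool was hybridised together to an array of spotted cDNA clones. There were 4 such arrays, experiments 3, 4, 7 and 8, with the wounded sample in Cy3 in experiments 3, 7 and 8 and in Cy5 in experiment 4. The experiments are called independent, but no separate cultures are named, so a p-value here measures only the spread between these arrays. Since RNA was pooled over embryos, a lower RNA level in every embryo and the loss of the RNA from some embryos cannot be told apart.

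The deposited values are log2 ratios between the channels, so they give no expression level and no order of levels among the genes. The sources used here do not say which channel is the numerator, so the ratio may be Cy5 over Cy3 or wounded over unwounded. The ratio of a single array is therefore given with its deposited sign, and no sign stands for higher or lower in wounded embryos. The mean over arrays is given as a size without direction, first with the sign of experiment 4 turned, as a Cy5 over Cy3 ratio would need, and then with experiment 4 not turned. The median ratio over all genes lay between -0.029 (experiment 3) and 0.013 (experiment 7), and the SD over genes between 0.250 (experiment 8) and 0.338 (experiment 3). The labelled stage could not be checked against marker levels, because a ratio near 0 can stand for a high or a low level in both samples.

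In flies, insulin-like peptides such as Ilp2 and Ilp4 are secreted and bind InR, a receptor tyrosine kinase. The active receptor recruits the adaptor Chico, which brings phosphatidylinositol 3-kinase to the membrane, and the lipid made there recruits the kinase Akt. Akt keeps the transcription factor Foxo out of the nucleus and favours growth through the kinase Tor and its substrate S6k. Mammalian Girdin is an actin-binding substrate of Akt, which ties the same chain to the cytoskeleton. Much of this relay works by protein modification, which an RNA ratio does not measure.

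At 0 min, no member passed the study's threshold, and the ratios of InR and Ilp4 varied the most from array to array. In limma, 0 of the 9 members had an adjusted p below 0.05 together with a mean of at least 0.585 in size (1.5-fold), with experiment 4 turned or not turned. The same was true of all genes, of which 0% passed in either reading. At an unadjusted p below 0.05, 2 of the 9 members were called with experiment 4 turned (Ilp2 and InR, against 4.82% of all genes) and 0 of 9 with experiment 4 not turned (against 2.46%). A chain of 9 genes makes these shares coarse, and the limma adjusted p was 0.985 for Ilp2 and 0.998 for InR.

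**Figure D1:**
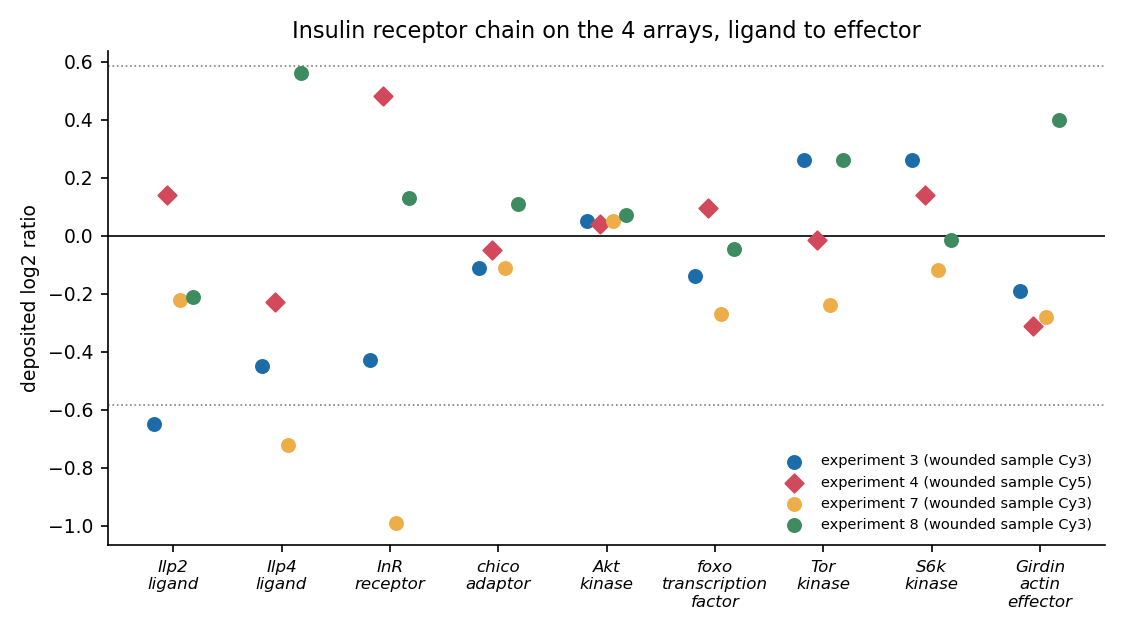
Deposited log2 ratio (y axis) of each member (x axis, ligand to effector) on experiments 3, 4, 7 and 8, with 1 point per array, spots of a gene averaged, a diamond for the array with swapped dyes and dotted lines at 1.5-fold. InR reached -0.99 and Ilp4 -0.72 in experiment 7, whereas the 4 values of Akt lay between 0.042 and 0.073.

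Among the ligands, Ilp2 gave the smallest unadjusted p of the chain. Ilp2, a growth-promoting peptide made in larval and adult flies by neurosecretory cells of the brain, had deposited log2 ratios of -0.65 (experiment 3), 0.14 (experiment 4), -0.22 (experiment 7) and -0.21 (experiment 8) (clone GH11579). Experiments 7 and 8 lay within 0.0058 of each other, while experiment 3 lay far below both and experiment 4 alone was above 0. Turning experiment 4 therefore put all 4 arrays on the same side of 0. The mean was 0.31 in size (SD 0.234, SE 0.103, n = 4 arrays, limma unadjusted p = 0.0249, adjusted p = 0.985) with experiment 4 turned. It was 0.24 (SD 0.326, n = 4 arrays, limma unadjusted p = 0.125, adjusted p = 0.997) with experiment 4 not turned. Without experiment 3 the turned mean fell to 0.19, and the unadjusted p no longer passed 0.05. Over experiments 3, 7 and 8, which share the dye orientation and need no turning, the mean was 0.36 in size (limma unadjusted p = 0.0347, adjusted p = 1.000). In those arrays the wounded sample was always in Cy3, so wounding and dye cannot be told apart. With experiment 4 turned and a dye term added, the mean was 0.25 in size (limma unadjusted p = 0.0983, adjusted p = 0.998).

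Ilp4, a peptide of the same family that is expressed in embryos, did not pass the test and varied widely between arrays. The deposited log2 ratio averaged over its printings was -0.45, -0.23, -0.72 and 0.56 in experiments 3, 4, 7 and 8. It stood near the bottom of the array in experiment 7, below all but 1.80% of genes, and near the top in experiment 8, above 98.1% of genes. The gap of 1.28 between those arrays, which carry the same dye orientation, was larger than that of 98.1% of the 8452 genes with both values. The mean was 0.092 in size (n = 4 arrays, SD 0.593, limma adjusted p = 0.998) with experiment 4 turned and 0.21 (n = 4 arrays, SD 0.552, limma adjusted p = 0.997) with experiment 4 not turned. Ilp2, Ilp3 and Ilp4 are neighbours in the RefSeq table. Ilp3 and the other insulin-like peptide genes of the pathway list had no named spot of their own here and were not analysed.

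The printings of Ilp4 gave similar ratios on each array. RE27042 read -0.43, -0.18, -0.72 and 0.55 in experiments 3, 4, 7 and 8, and its re-amplified printing read -0.47, -0.29, -0.72 and 0.57. The printings differed by 0.0469 on average and by 0.12 at most, in experiment 4. Over 175 pairs of printings on the array the median difference was 0.274, and only 2.29% of pairs differed less. Both printings derive from 1 clone, so they would share any cross-hybridisation of that clone.

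The receptor gene InR had the largest mean of the chain with experiment 4 turned and the largest spread over arrays. Its deposited log2 ratios were -0.43 (experiment 3), 0.48 (experiment 4), -0.99 (experiment 7) and 0.13 (experiment 8) (clone LD06045). The value in experiment 7 was below all but 0.437% of genes and that in experiment 4 above 96.4% of genes. The SD over the deposited ratios, 0.648, exceeded that of 97.3% of genes. The mean was 0.44 in size (SD 0.460, SE 0.174, n = 4 arrays, limma unadjusted p = 0.0430, adjusted p = 0.998) with experiment 4 turned. In that reading, experiments 3, 4 and 7 fell on the same side of 0 and experiment 8 on the other. With experiment 4 not turned the mean was 0.20 (SD 0.648, SE 0.239, n = 4 arrays, limma unadjusted p = 0.429, adjusted p = 0.997), with the arrays split 2 and 2 about 0.

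The size of the InR mean depended on single arrays. Leaving out experiment 7 took the turned mean to 0.26, leaving out experiment 8 took it to 0.64, and the other omissions gave 0.45 (without experiment 3) and 0.43 (without experiment 4). Between experiments 7 and 8, InR differed by 1.12, a larger gap than that of 96.9% of genes. InR was read by 1 spot, so the agreement between spots seen for Ilp4 could not be examined for the receptor.

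Genes that mark the onset of zygotic transcription differed between the same arrays. Of 23 such genes listed, 12 were measured, among them sna and twi, which specify mesoderm, and slam and nullo, which act in cellularisation. They had a median log2 ratio of -0.47 in experiment 7, where 12 of 12 were below 0 (range -0.74 to -0.0047), and of 0.47 in experiment 8, where 10 of 12 were above 0 (range -0.48 to 0.76). In experiment 3 their median was -0.21 with 11 of 12 below 0 (range -0.49 to 0.0044), and in experiment 4 it was 0.038 with 5 of 12 below 0 (range -0.97 to 0.56). Ilp4, InR, chico and Girdin went the way of these medians in experiments 3, 7 and 8, as did 18.5% of the genes with values on every array. In experiment 4, where the median was only 0.038, InR was above 0 and Ilp4, chico and Girdin were below it. The part of the zygotic genes in the values of the members was not tested.

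Of 17 genes of maternally loaded RNA, 14 were measured (13 in experiment 4). Their medians were 0.12, -0.11, -0.11 and -0.096 in experiments 3, 4, 7 and 8, and their single values lay between -0.80 and 0.68. Of 14 genes of differentiated muscle, nerve, eye, gut and cuticle, 8 were measured, with medians of 0.018 (experiment 3), 0.39 (experiment 4), -0.054 (experiment 7) and 0.043 (experiment 8). All 8 were above 0 in experiment 4 (range 0.020 to 0.62), against 49.5% of all genes. Of the members, InR, Ilp2 and foxo had their highest deposited ratio on that array. In the other arrays this list ran from -0.54 in experiment 7 to 3.46 in experiment 3. The part of these lists in the results was not tested either.

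**Figure D2:**
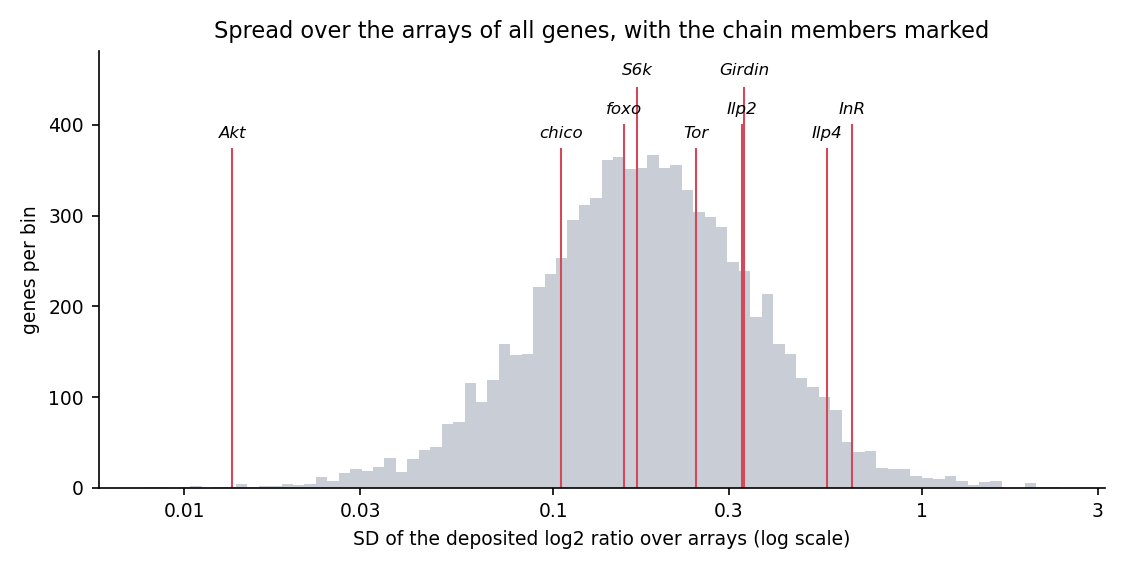
Histogram of the SD of the deposited log2 ratio over arrays (x axis, log scale) for all genes (y axis, genes per bin), with a vertical line at each member. InR (0.648) and Ilp4 (0.552) lie in the upper tail, and Akt (0.0135) lies at the lower end.

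Downstream of the receptor, the adaptor and the kinase varied far less. The deposited log2 ratios of chico, which encodes the fly insulin receptor substrate, were -0.11, -0.049, -0.11 and 0.11 in experiments 3, 4, 7 and 8 (clone GH11263). All 4 lay close to 0, and the SD of 0.105 exceeded that of only 21.0% of genes. The mean was 0.016 in size (n = 4 arrays, SD 0.114, limma adjusted p = 0.998) with experiment 4 turned and 0.041 (limma adjusted p = 0.997) with experiment 4 not turned.

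Akt, the serine-threonine kinase in the middle of the chain, had the steadiest ratios of the 9 genes. Its deposited log2 ratios were 0.049 (experiment 3), 0.042 (experiment 4), 0.050 (experiment 7) and 0.073 (experiment 8) (clone SD10374). They spanned 0.031, and only 0.0709% of genes had a smaller SD. Akt was the only member with the same deposited sign on all 4 arrays, a pattern found in 9.98% of the 8448 genes with values on every array. Its mean was 0.054 in size (SD 0.0135, SE 0.0617, n = 4 arrays, limma adjusted p = 0.997) with experiment 4 not turned and 0.033 (n = 4 arrays, SD 0.0511, limma adjusted p = 0.998) with it turned. The SE is larger than the SD would give because limma draws each gene's variance toward that of the other genes. The 95% interval of the turned mean reached 0.19 in size.

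The transcription factor gene foxo behaved differently in its clones. Averaged over the clones, the deposited log2 ratios were -0.14, 0.097, -0.27 and -0.046 in experiments 3, 4, 7 and 8. With experiment 4 turned, all 4 arrays fell on the same side of 0, as for Ilp2, and these were the only 2 members of which this was true (against 11.9% of genes). The mean was then 0.14 in size (SD 0.0969, SE 0.0710, n = 4 arrays, limma unadjusted p = 0.0979, adjusted p = 0.998). With experiment 4 not turned it was 0.090 (limma unadjusted p = 0.319, adjusted p = 0.997).

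Clone LD19191 of foxo read -0.04, -0.07, -0.23 and 0.11 in experiments 3, 4, 7 and 8, and clone LD45950 read -0.24, 0.26, -0.32 and -0.20. Their signs were opposite in experiments 4 and 8. The clones differed by 0.231 on average, which is more than 77.9% of 928 pairs of different clones of one gene, whose median difference was 0.135. The same-sided pattern of foxo with experiment 4 turned was therefore carried by LD45950 and not by LD19191. The turned mean of LD45950 alone was 0.25 in size (limma adjusted p = 0.653 among single spots). In that fit of single spots, a gene with several spots was represented by its spot with the smallest p. Through LD45950, chosen in this way, foxo joined Ilp2 and InR at an unadjusted p below 0.05. Genes with several spots had more chances of being called than genes with a single spot. The share of all spots called in that fit is not given here, so the call of foxo is not read as a result.

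**Figure D3:**
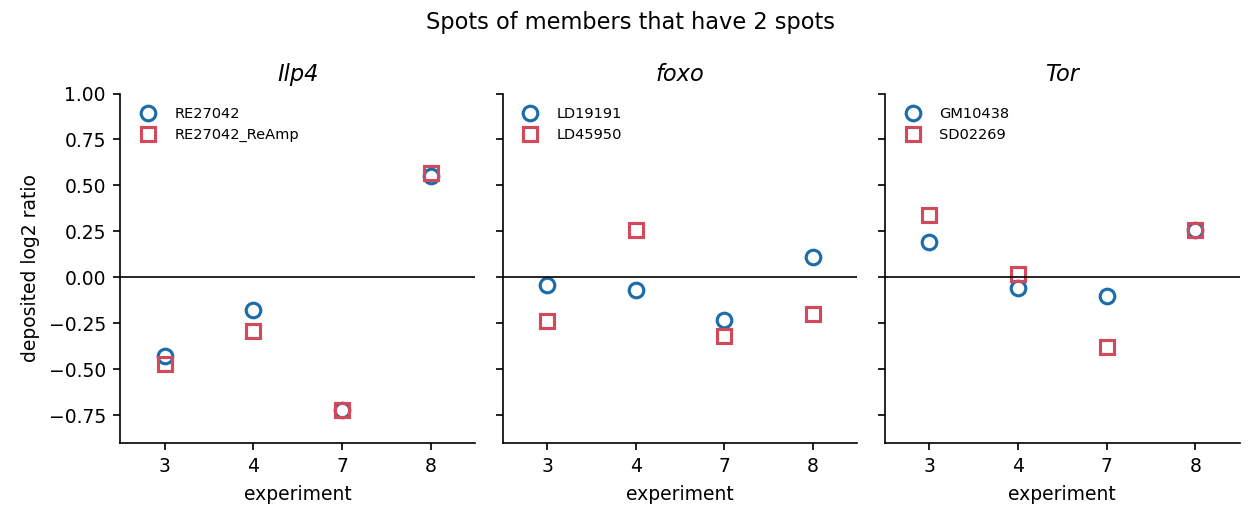
Deposited log2 ratio (y axis) on each array (x axis) for the separate spots of the 3 members read by more than 1 spot, Ilp4, foxo and Tor. The printings of Ilp4 differed by 0.12 at most, the clones of foxo by up to 0.33 and those of Tor by up to 0.28.

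In the growth branch, neither kinase gene passed the test. Tor, the kinase at the centre of the TOR complexes, had deposited log2 ratios of 0.26 (experiment 3), -0.016 (experiment 4), -0.24 (experiment 7) and 0.26 (experiment 8). Experiments 3 and 8 were alike and experiment 7 was on the other side of 0. Clone GM10438 read 0.19, -0.06, -0.10 and 0.26, and clone SD02269 read 0.34, 0.02, -0.38 and 0.26. The clones differed by 0.130 on average, close to the median pair of clones, and they had the same sign except in experiment 4, where both were near 0. The mean of Tor was 0.076 in size (n = 4 arrays, SD 0.241, limma adjusted p = 0.998) with experiment 4 turned and 0.068 (n = 4 arrays, SD 0.244, limma adjusted p = 0.997) with experiment 4 not turned. Leaving out 1 array moved the turned mean between 0.013 (without experiment 3 or 8) and 0.18 (without experiment 7).

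S6k, the ribosomal protein S6 kinase that Tor activates, had deposited log2 ratios of 0.26, 0.14, -0.12 and -0.014 in experiments 3, 4, 7 and 8 (clone RE65159). The arrays were split 2 and 2 about 0. The mean was 0.0030 in size (n = 4 arrays, SD 0.185, limma adjusted p = 0.999) with experiment 4 turned, the smallest of the chain, and 0.066 (n = 4 arrays, SD 0.169, limma adjusted p = 0.997) with experiment 4 not turned.

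Girdin, at the cytoskeletal end of the chain, had a deposited ratio below 0 on 3 arrays and above 0 on the other. With experiment 4 turned, experiments 4 and 8 fell on the same side of 0 and experiments 3 and 7 on the other. Its deposited log2 ratios were -0.19 (experiment 3), -0.31 (experiment 4), -0.28 (experiment 7) and 0.40 (experiment 8) (clone LD40094). Experiment 8 stood apart at 0.40, above 96.1% of genes on that array. Its gap of 0.67 to experiment 7 was larger than that of 89.6% of genes. The mean was 0.059 in size (n = 4 arrays, SD 0.341, limma adjusted p = 0.998) with experiment 4 turned and 0.094 (n = 4 arrays, SD 0.330, limma adjusted p = 0.997) with experiment 4 not turned.

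The members were also compared as a group with all genes, array by array. In experiment 7, 8 of the 9 members were below 0, all but Akt, against 47.3% of genes (52.7% were above 0), and the median of the members was -0.24. In experiment 8, 6 of 9 were above 0 (against 46.0% of genes, with 54.0% below 0), with a median of 0.11. In experiment 3, 6 of 9 were below 0 (against 57.0%, with 43.0% above 0), with a median of -0.14, and in experiment 4, 4 of 9 were below 0 (against 50.5%, with 49.5% above 0), with a median of 0.042. Ratios past 1.5-fold were few. They numbered 1 in experiment 3 (Ilp2, against 5.51% of genes), 0 in experiment 4 (2.60%), 2 in experiment 7 (Ilp4 and InR, 5.27%) and 0 in experiment 8 (3.47%).

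Across members, 5 of 9 (Ilp4, InR, chico, Tor and Girdin) were below 0 in experiment 7 and above 0 in experiment 8, a pattern of 27.2% of genes. Of these, 4 were also below 0 in experiment 3 (Tor was not), against 18.5% of genes. The median SD over arrays was 0.244 for the members and 0.178 for all genes. The median size of the mean was 0.0757 for the members and 0.0653 for all genes with experiment 4 turned, and 0.0904 and 0.0645 with experiment 4 not turned.

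**Figure D4:**
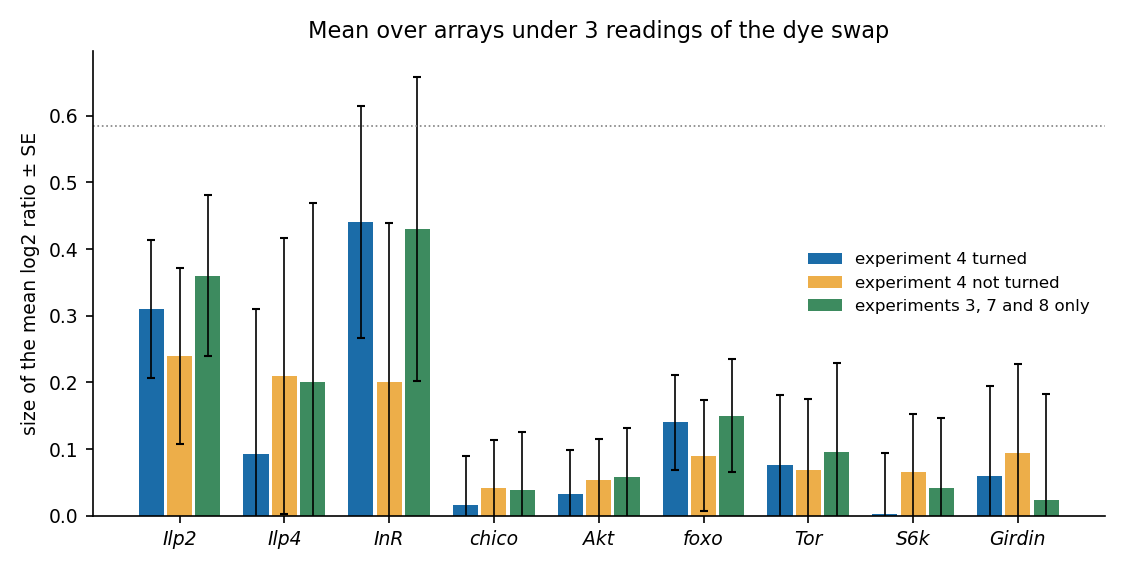
Size of the mean log2 ratio over arrays (y axis) of each member (x axis) with experiment 4 turned, with it not turned and over experiments 3, 7 and 8 only, with error bars of 1 SE from limma, shown down to 0, and a dotted line at 1.5-fold (0.585). InR (0.44) and Ilp2 (0.31) are the largest with experiment 4 turned, and every mean lies below the line.

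The intervals show how large a difference these arrays could have missed. With experiment 4 turned, the 95% interval of the mean lay within 1.5-fold either way for 7 of the 9 members. The exceptions were InR, whose interval reached 0.87 in size, and Ilp4, whose interval reached 0.63. With experiment 4 not turned the same 7 lay within 1.5-fold, and InR and Ilp4 reached 0.79 and 0.72. Over experiments 3, 7 and 8 alone 6 members did, since Ilp2 then reached 0.68. For InR and Ilp4 the arrays thus left room for a mean past 1.5-fold. Without adjustment for the number of genes, the interval did not include 0 for Ilp2 and InR with experiment 4 turned, and it included 0 for all 9 members with experiment 4 not turned.

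The wider pathway was described through a list of 59 insulin and TOR genes, of which 39 were measured, the 9 members included. None of the 39 passed the threshold in limma in either reading. At an unadjusted p below 0.05, 4 of 39 were called with experiment 4 turned (Ilp2, InR, Pi3K68D and gig, against 4.82% of genes) and 0 of 39 with experiment 4 not turned (2.46%). The median size of the mean was 0.0615 over the list with experiment 4 turned and 0.0785 with experiment 4 not turned, beside 0.0653 and 0.0645 over all genes.

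With experiment 4 turned, the smallest p outside the chain belonged to a lipid kinase, an inhibitor of Tor and a subunit of a TOR complex. Pi3K68D, a class II phosphatidylinositol 3-kinase, had deposited log2 ratios of -0.26, 0.11, -0.31 and -0.11 in experiments 3, 4, 7 and 8. Its turned mean was 0.20 in size (SE 0.0724, n = 4 arrays, limma unadjusted p = 0.0332, adjusted p = 0.998), with all 4 arrays on the same side, and its mean with experiment 4 not turned was 0.14 (limma unadjusted p = 0.169, adjusted p = 0.997). The gene gig, the fly TSC2 and an inhibitor of Tor signalling, had ratios of -0.21, 0.10, -0.090 and -0.44 in experiments 3, 4, 7 and 8. Its turned mean was 0.21 in size (SE 0.0848, n = 4 arrays, limma unadjusted p = 0.0477, adjusted p = 0.998), and 0.16 with experiment 4 not turned (limma unadjusted p = 0.169, adjusted p = 0.997). For rictor, a subunit of the TOR complex that phosphorylates Akt, the turned mean was 0.14 (limma unadjusted p = 0.104, adjusted p = 0.998), but only 0.012 with experiment 4 not turned (limma adjusted p = 0.997).

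With experiment 4 not turned, the smallest p outside the chain belonged to Sesn, RagC-D and srl. Sesn, the sestrin that restrains TOR signalling, had a mean of 0.19 in size (limma unadjusted p = 0.0573, adjusted p = 0.997), with ratios of 0.22, 0.38, 0.11 and 0.050 in experiments 3, 4, 7 and 8, all above 0. With experiment 4 turned the mean of Sesn was 0.00039 in size (limma unadjusted p = 0.997). RagC-D, a GTPase of the amino acid branch, had a mean of 0.20 (limma unadjusted p = 0.0729, adjusted p = 0.997), against 0.062 with experiment 4 turned (unadjusted p = 0.620). The coactivator gene srl, the fly PGC-1 relative, had a mean of 0.23 (limma unadjusted p = 0.166, adjusted p = 0.997), against 0.082 with experiment 4 turned (unadjusted p = 0.641). Different genes of the pathway thus headed the list in the 2 readings, and none passed adjustment in either.

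Among pathway genes that the study examined, ImpL2 and Thor varied even more than InR. ImpL2, a secreted antagonist that binds insulin-like peptides, had deposited log2 ratios of 0.41 (experiment 3), 0.72 (experiment 4), -1.53 (experiment 7) and 0.85 (experiment 8). Its SD of 1.11 exceeded that of 99.4% of genes, and its mean was 0.25 in size (n = 4 arrays, SD 1.08, limma adjusted p = 0.998) with experiment 4 turned and 0.11 (limma adjusted p = 0.997) with experiment 4 not turned. Thor, the translation repressor 4E-BP, is a known target of Foxo in flies, as InR is. Thor had ratios of 0.88, 1.46, -0.90 and 0.36 in experiments 3, 4, 7 and 8.

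The mean of Thor was 0.28 in size (n = 4 arrays, SD 1.08, limma adjusted p = 0.998) with experiment 4 turned and 0.45 (n = 4 arrays, SD 1.00, limma adjusted p = 0.997) with experiment 4 not turned. InR, ImpL2 and Thor each had their lowest ratio in experiment 7 and a ratio above 0 in experiments 4 and 8. So had REPTOR and further genes of the list, so the pattern was not particular to these genes. The share of all genes with that pattern was not worked out. A ratio below 0 in experiment 7 and above 0 in experiment 8 was seen in 16 of the 39 list genes and 27.2% of all genes. A shared cause was not tested. In experiment 3 InR was below 0 and ImpL2 and Thor were above it.

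The remaining genes of that kind were closer to 0. Pi3K21B, the adaptor subunit of the phosphatidylinositol 3-kinase that Chico recruits, had ratios of 0.42, 0.19, 0.12 and -0.18 in experiments 3, 4, 7 and 8. Its mean was 0.043 in size with experiment 4 turned (limma adjusted p = 0.998) and 0.14 with experiment 4 not turned (limma adjusted p = 0.997). REPTOR, a transcription factor held back by TOR signalling, had ratios of 0.094, 0.55, -0.24 and 0.070 and a turned mean of 0.16 in size (limma adjusted p = 0.998), or 0.12 with experiment 4 not turned (limma adjusted p = 0.997). The profilin gene chic, an actin regulator like Girdin, had ratios of -0.060, -0.19, -0.033 and 0.48 and a turned mean of 0.14 in size (limma adjusted p = 0.998), or 0.051 with experiment 4 not turned (limma adjusted p = 0.997). Like Girdin, chic was below 0 in experiments 3, 4 and 7 and above 0 in experiment 8. Ilp4, chico and further genes of the list had the same signs, so this was not particular to the actin regulators. The share of all genes with these signs was not worked out.

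**Figure D5:**
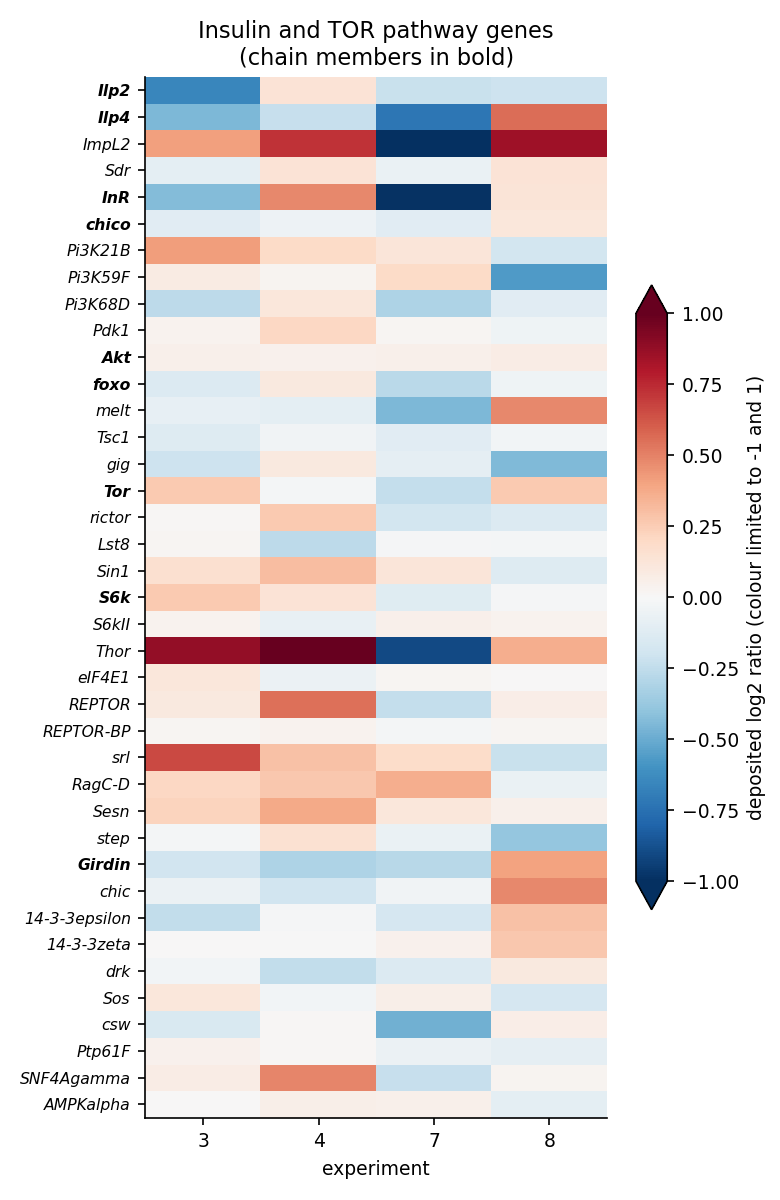
Deposited log2 ratio (colour, red above 0 and blue below, limited to 1 in size) of the 39 measured insulin and TOR genes (rows, members in bold) in experiments 3, 4, 7 and 8 (columns). ImpL2 (-1.53 to 0.85) and Thor (-0.90 to 1.46) span the widest ranges, and Akt and REPTOR-BP the narrowest.

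Genes with ratios most like those of InR and Ilp4 were taken by the Euclidean distance over the 4 deposited ratios. The genes closest to InR were Tob (distance 0.24), CG3638 (0.25) and Ptr (0.25), where the median distance over 8447 other genes was 1.24. Tob had ratios of -0.23, 0.44, -0.87 and 0.083 in experiments 3, 4, 7 and 8, so it was lowest in experiment 7 and highest in experiment 4, as InR was. The genes closest to Ilp4 were CG8654 (distance 0.092), CG13894 (0.10) and CG7884 (0.16), against a median distance of 1.09. CG8654 had ratios of -0.41, -0.16, -0.72 and 0.58, each within 0.1 of that of Ilp4. With 4 values per gene, a close match among so many genes is a description only.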

How the data were processed

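The authors hybridised the 4 two-colour arrays and deposited 1 log2 ratio per spot and array, loess normalized within each array in limma, per the methods. The methods also removed spots that were dim against the background or dim in both channels, and spots marked as questionable by the image software. Whether the deposited ratios are from before or after that removal, the authors' version of limma and a genome build are not given in the sources used here. Of 12144 spots, 160 control spots (plant genes and genomic DNA) were left out, as were 625 probes annotated with several genes. Names for the other probes came from the platform annotation (9746 symbols updated and 171 kept) and from clone names among RefSeq synonyms (130). Clone and gene pairs of the study's tables gave the rest (135, names only). This made 10182 named probes of 8521 genes, and probes that none of these sources named were left out. Spots of a gene were averaged per array. The 8465 genes with values on at least 3 arrays were fitted in limma 3.58.1 (R 4.3.3; lmFit and eBayes, two-sided, Benjamini-Hochberg adjustment over all of them), with experiment 4 given the opposite sign. The number of arrays limits the precision.

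The fit was tested on simulated data. Experiment 4 not turned, a dye term, centred or scaled arrays, single spots, other minimum numbers of arrays and each array left out were tried as alternatives. The members, the pathway and marker lists and the tests were chosen with earlier results of these data known. Genes outside the chain were named if the study had examined them (ImpL2, Thor, Pi3K21B, REPTOR and chic), if they had the 3 smallest p of the list in either reading, or if they were the 3 nearest to InR or Ilp4 in distance. Members and list genes were matched by current symbol. The 30 min arrays were not analysed here.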

Additional observations from a re-analysis of the deposited data

Results flagged for a closer look

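Each member's 4 values were screened for an array standing apart, by Dixon's ratio of the gap to the whole range, with experiment 4 turned and not turned. Of 18 such tests 2 passed, where chance alone passes about 5% of tests on normally distributed values. Both readings use the same values of a gene, so the tests are not independent. The share of all genes passing this screen was not worked out, so the count is not read as a result about the members. Ilp2 was picked out for experiment 3, at -0.65, with experiment 4 turned (gap 0.850 of the range). Girdin was picked out for experiment 8, at 0.40, with experiment 4 not turned (gap 0.836 of the range).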

How the results depend on the processing

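Each result was recomputed under 15 alternatives. No member passed the threshold under any of them, and the smallest limma adjusted p of a member was 0.653 (foxo in the fit of single spots, through the clone with the smaller p). Of 135 mean values of the members, 111 had the same direction as with experiment 4 turned and 24 did not, and the cause was not tested. Not all of the 111 could have differed. The members had values on every array, so other minimum numbers of arrays left their means as they were. Single spots did the same for members read by 1 spot. Leaving out experiment 4 gives the same fit turned or not turned and was counted in both readings. With experiment 4 not turned, S6k (0.066) and Girdin (0.094) turned. S6k also turned with arrays centred (0.0096) or centred and scaled (0.022). With a dye term, Ilp4 (0.017) and chico (0.0055) turned. Leaving out 1 array in turn gave mean sizes of 0.00067 to 0.092 for S6k, 0.024 to 0.17 for Girdin, 0.027 to 0.31 for Ilp4, 0.016 to 0.059 for chico, 0.26 to 0.64 for InR, 0.013 to 0.18 for Tor, 0.019 to 0.058 for Akt, 0.094 to 0.17 for foxo and 0.19 to 0.36 for Ilp2 with experiment 4 turned. Within these, the direction turned for Ilp4 and chico without experiment 3 (0.027 and 0.016) and without experiment 7 (0.12 and 0.016), for Girdin without experiment 4 (0.024) and 8 (0.053), and for S6k without experiment 4 (0.042), 7 (0.037) and 8 (0.00067). With experiment 4 not turned, S6k and Girdin turned without each array, with sizes of 0.00082 and 0.062 (without experiment 3), 0.042 and 0.024 (4), 0.13 and 0.034 (7) and 0.093 and 0.26 (8). The ranges were then 0.040 to 0.47 for Ilp4, 0.016 to 0.091 for chico, 0.060 to 0.43 for InR, 0.0022 to 0.17 for Tor, 0.047 to 0.058 for Akt, 0.030 to 0.15 for foxo and 0.096 to 0.36 for Ilp2. InR turned in 1 of them, without experiment 7 (0.060). The number of members at an unadjusted p below 0.05 was 0 with a dye term, and the number of list genes was 2. Both were 0 with experiment 4 not turned. Leaving out 1 array with experiment 4 turned gave 0 to 2 members (0 without experiment 3, Ilp2 alone without 4 or 7). Ilp2 and InR were called without experiment 8. With experiment 4 not turned, leaving out 1 array also gave 0 to 2 members (Ilp2 alone without experiment 4). The members called without experiment 8 were then Ilp4 and Girdin, not Ilp2 and InR. Among list genes, 0 to 3 were called with experiment 4 turned (0 without experiment 3, 2 without 4 and 1 without 7). With it not turned, 0 to 5 were called (2 without experiment 4, 2 without 7 and 5 without 8). The share of all genes at that p was not worked out for the dye-term and leave-one-out fits. These counts are therefore not read as a result about the chain or the list. Each ratio already sets a wounded beside an unwounded sample of the same array, so the fit on ratios is a paired one. The arrays form 1 group, and no further pairing between them was used.

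No intensities come with the ratios, so the signal over background of each spot is unknown. Most members rest on 1 spot, and 4 arrays give wide intervals for InR and Ilp4.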
